A study of Mus musculus with 9 samples.

Results

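The comparison is between the RNA of Dgcr8 knockout eggs and that of wild-type eggs, measured with 3 arrays per genotype, which is 6 of the 9 arrays of the study. The eggs were ovulated mouse oocytes resting at metaphase II until a sperm arrives, and the strain was given as C57BL/6 for every group. The other 3 arrays came from Dicer knockout eggs, which entered the fit to share 1 estimate of the spread between replicates and serve here only to show where the Dgcr8 knockout differs from them. All females had received 7.5 IU of PMSG and then 7.5 IU of hCG, the hormones that ripen follicles and trigger ovulation. Oviducts were taken 14 to 16 h after hCG, the source labels giving 16 h, and the cumulus cells around the eggs were removed by hyaluronidase (0.3 mg/ml) and washes. The labels call the arrays of a group biological replicates. How the knockouts were made, which exons were removed, the age of the females, and how many eggs and females went into an array are not known here.

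Of 35557 probe sets in the value table, 21789 are named for 1 gene, and all of these that reached a log2 signal of 4 in at least 3 of the 6 arrays were compared. This left 18803 probe sets of 17239 genes, and 2986 stayed under that floor. The rule used signal and not the difference between the genotypes, but a probe set near the floor can enter through 1 genotype. Of those tested, 18275 reached the floor in all 6 arrays, the 3 called ones among them, while 4 reached it in the 3 knockout arrays alone and 3 in the 3 wild-type arrays alone.

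Dgcr8 is the RNA-binding partner of the nuclease Drosha. Together they form the Microprocessor, which cuts the hairpin out of a primary microRNA transcript in the nucleus. Dicer then cuts the hairpin to the mature microRNA, which guides Argonaute proteins to messenger RNAs that pair with its seed, and paired messengers are usually degraded or less translated. Mouse oocytes also hold endogenous small interfering RNAs, which Dicer makes from long double-stranded RNA without Dgcr8. A fully grown oocyte is close to silent in transcription and lives on stored messenger RNA. The comparison asks how far the egg's RNA pool differs when the Microprocessor lacks Dgcr8.

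The arrays of both genotypes read as oocytes. All 12 oocyte markers, among them Zp1 to Zp3 of the egg coat, the growth factor genes Gdf9 and Bmp15, and Mos, had a mean log2 signal between 10.6 and 12.4. Their mean over the 12 genes was 11.7 in each wild-type array and lay between 11.6 and 11.7 in the Dgcr8 knockout arrays. For cumulus and granulosa cells, 10 of 12 markers passed the floor, and their mean lay between 5.53 and 5.62 in the wild-type and between 5.54 and 5.60 in the knockout arrays. Only Nr5a2 of these was at 8 or more. For the oviduct, 5 of 7 markers had a mean between 6.84 and 6.90 in wild-type and between 6.74 and 7.0 in knockout arrays. Only Cdh1 of these was at 8 or more, at 10.9, and the median signal of the 5 was 5.74. For blood and immune cells, 5 of 7 had a mean between 4.97 and 5.14 in wild-type and between 5.00 and 5.13 in knockout arrays. No marker of these 4 sets reached an unadjusted p under 0.05. In the wider lists 1 gene each did: Kitl among 21 cumulus and granulosa genes, at -0.23 (limma unadjusted p = 0.0227, adjusted p = 1), and Des, desmin of smooth muscle, among 12 oviduct genes, at -0.33 (limma unadjusted p = 0.0373, adjusted p = 1). In bulk RNA, fewer cells of a type and less RNA per cell cannot be told apart, and since values were normalized between arrays, a change that touched every transcript alike would not show.

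Most probe sets differed little between the genotypes. The median size of a log2 change was 0.06, a 1.04-fold difference. The 95th percentile was 0.26, or 1.19-fold, the 99th was 0.41, or 1.33-fold, and the 99.9th was 0.75, or 1.69-fold. Of 18803 probe sets, 1008 differed by at least 0.25, 82 by at least 0.5, 47 by at least 1.5-fold, 6 by at least 2-fold and 3 by at least 4-fold. The changes lay evenly around 0, with a median of -0.003 and 48.6% of probe sets above 0.

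The changes were of the size of the spread between replicates. The median SD of 3 arrays was 0.086 in wild-type and 0.109 in Dgcr8 knockout eggs, and 73.6% of the changes were smaller than the pooled replicate SD of their own probe set. In the limma fit, 3 probe sets (0.016%) passed an adjusted p under 0.05, 2 of them higher (0.0106%) and 1 lower (0.00532%) in the knockout. An unadjusted p under 0.05 was reached by 471 probe sets (2.5%), 253 higher (1.35%) and 218 lower (1.16%). That count depended on the fit, with 585 for the 6 arrays alone and 991 with array weights. The fit shares its spread with the Dicer knockout arrays, whose median SD was 0.120. The 3 values of a genotype lay wholly above or below the 3 of the other for 1214 probe sets (6.46%), with the knockout above in 652 (3.47%) and below in 562 (2.99%). In 6 interchangeable arrays without ties a share of 0.1 would be expected, so 6.46% is not an excess. A change missing the threshold does not show equal levels, so the intervals matter: the 95% interval lay within 0.5 of 0 on the log2 scale for 16207 probe sets (86.2%) and within 1 of 0 for 18607 (98.96%).

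**Figure D1:**
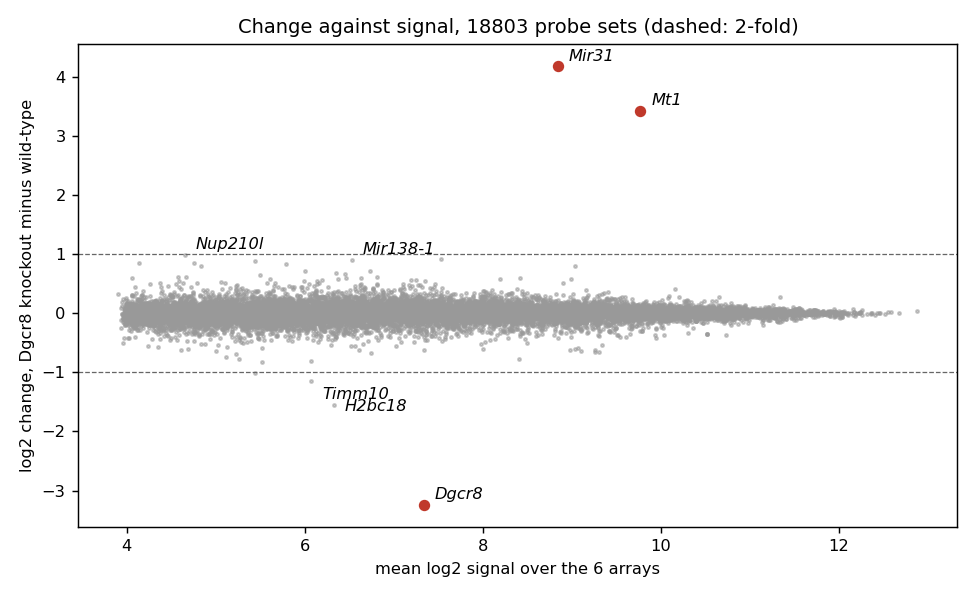
The vertical axis plots the log2 change, Dgcr8 knockout minus wild-type, of 18803 probe sets against their mean log2 signal over the 6 arrays, with dashed lines at 2-fold. Mir31, Mt1 and Dgcr8 (red, adjusted p under 0.05) stand apart, 3 other probe sets lie past 2-fold, and the cloud narrows at high signal.

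The same floor and fit gave much larger differences for the Dicer knockout, whose comparison shares the wild-type arrays. There the 99th percentile of the size was 1.46, 465 probe sets differed by at least 2-fold, and 2112 (11.2%) passed the test. Set directly against each other in the same fit, the 2 knockouts differed at 2526 probe sets (13.4%); that contrast uses the wild-type arrays only for the spread.

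Dgcr8 itself was the only probe set called lower. Its log2 signal was 8.85, 9.05 and 8.97 in the wild-type arrays and 5.47, 5.98 and 5.70 in the knockout arrays. The knockout arrays lay below the wild-type arrays by at least 2.87. The change was -3.24 ± 0.15 (SE, n = 3 per group; limma adjusted p = 1.78e-05), or 9.46-fold. The Dicer knockout arrays read 8.37, 8.28 and 8.72, and differed from the Dgcr8 knockout by 2.74 (limma adjusted p = 5.23e-06). Against wild-type, Dgcr8 in the Dicer knockout was lower by 0.50 on average (limma adjusted p = 0.0682). Thus the libraries labelled Dgcr8 knockout carried by far the lowest Dgcr8 signal. Whether the probes of this set lie in the removed part is not known here.

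Mt1 was higher in every Dgcr8 knockout array. It encodes metallothionein 1, a small cysteine-rich protein that binds zinc and other metals. The wild-type arrays read 7.95, 8.07 and 8.16, and the knockout arrays 11.46, 11.53 and 11.46. Replicates differed by less than 0.3 in either genotype, and the groups were 3.29 apart. The change was 3.42 ± 0.08 (SE, n = 3 per group; limma adjusted p = 5.75e-08), or 10.7-fold. Mt1 was also high in the Dicer knockout, at 11.44, 11.66 and 11.73, a change of 3.55 against the same wild-type arrays. The knockouts differed by 0.13 (limma adjusted p = 0.379).

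Mir31, the gene of the microRNA miR-31, had the largest change of all probe sets tested. Its wild-type arrays read 6.50, 7.72 and 6.04 and its knockout arrays 10.94, 11.04 and 10.82. The wild-type arrays were spread over 1.68, while the knockout arrays lay close together and 3.09 above the highest of them. The change was 4.18 ± 0.40 (SE, n = 3 per group; limma adjusted p = 0.00854), or 18.1-fold. In the Dicer knockout arrays Mir31 read 6.11, 5.08 and 6.10, which was 5.17 below the Dgcr8 knockout (limma adjusted p = 3.33e-05) and 0.99 below wild-type on average (limma adjusted p = 0.162). The call rested on the estimate of the spread. The adjusted p was 0.0699 with the 6 arrays alone and 0.0833 without wild-type replicate 1. Without Dgcr8 knockout replicate 1, 2 or 3 it was 0.0743, 0.123 and 0.111, while the change stayed between 3.82 and 4.66 when any of the 9 arrays was left out.

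**Figure D2:**
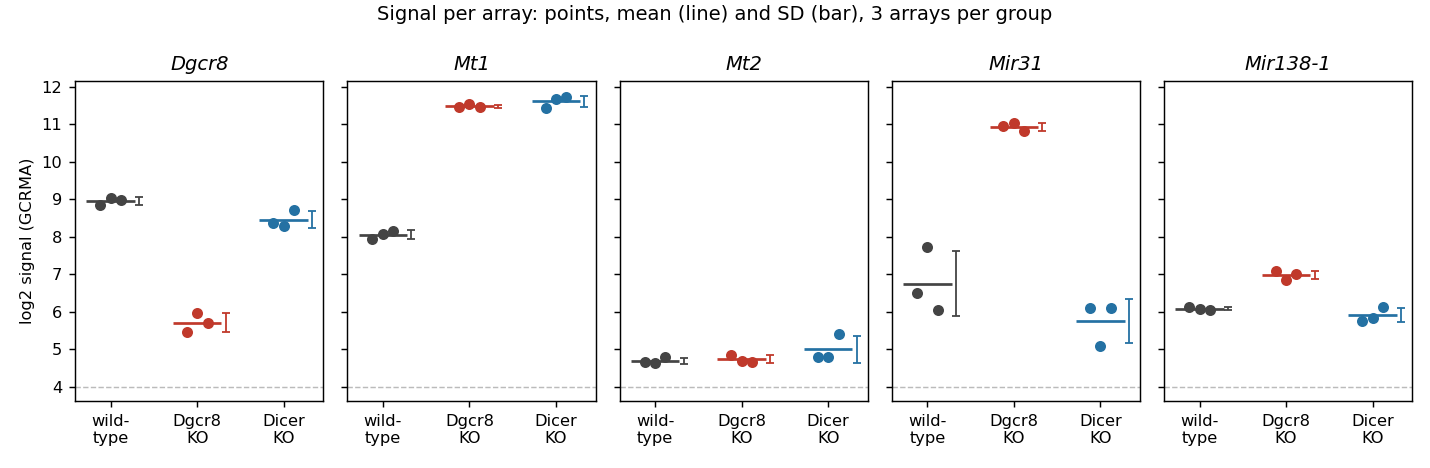
The log2 signal of Dgcr8, Mt1, Mt2, Mir31 and Mir138-1 is plotted for each of the 9 arrays by genotype (KO, knockout), with the group mean as a line, the SD as a bar beside it and the floor of 4 dashed. The Dgcr8 knockout arrays stand apart from wild-type for all but Mt2, whose values lie between 4.63 and 4.86 in those 6 arrays.

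A probe set named for a microRNA gene reads RNA of the hairpin's locus, and the primary transcript, the hairpin and the mature product cannot be told apart with it. The sequences are shown because Mir31 had the largest change and Mir138-1 came nearest to the threshold among the probe sets that missed it. RefSeq (GRCm38.p6) places the Mir31 hairpin at chr4:88910557-88910662 on the minus strand and the Mir138-1 hairpin at chr9:122682876-122682974 on the plus strand. In the hairpins the capitals mark the mature arms, the parts that Drosha with Dgcr8 and then Dicer free.
Mir31 hairpin: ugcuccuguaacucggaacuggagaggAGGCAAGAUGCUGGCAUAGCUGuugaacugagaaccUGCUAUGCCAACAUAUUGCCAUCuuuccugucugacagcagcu
Mir138-1 hairpin: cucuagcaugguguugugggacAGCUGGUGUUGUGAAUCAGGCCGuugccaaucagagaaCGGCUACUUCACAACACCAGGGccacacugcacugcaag
In the mature microRNAs below, the capitals mark the seed (bases 2 to 8). They are the products of these hairpins, followed by 1 member of each family whose reported targets are described further on. miR-15a and miR-16 share their seed.
miR-31-5p: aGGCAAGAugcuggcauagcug
miR-31-3p: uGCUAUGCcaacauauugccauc
miR-138-5p: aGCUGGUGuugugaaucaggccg
miR-138-1-3p: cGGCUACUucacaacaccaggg
let-7a-5p: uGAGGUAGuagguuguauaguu
miR-30a-5p: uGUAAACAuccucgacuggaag
miR-15a-5p: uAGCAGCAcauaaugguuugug
miR-16-5p: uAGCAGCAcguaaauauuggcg
miR-17-5p: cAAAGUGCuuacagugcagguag

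Mir138-1, which with Mir138-2 is a source of miR-138-5p, came next in p and missed the threshold. It read 6.12, 6.08 and 6.05 in wild-type and 7.08, 6.85 and 7.01 in Dgcr8 knockout arrays. The groups did not overlap, and were 0.74 apart. The change was 0.90 ± 0.11 (SE, n = 3 per group; limma adjusted p = 0.0536), or 1.87-fold. Its adjusted p lay between 0.0105 and 0.458 over 20 settings and passed in 7 of them, among them the fit with 1 probe set per gene (0.0408) and the one without Dicer knockout replicate 3 (0.0224). In the Dicer knockout its mean was 5.91, below the Dgcr8 knockout by 1.07 (limma adjusted p = 0.000224). Mir138-2 had a change of -0.04.

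The other microRNA genes lay at low signal and showed small differences. Of 298 probe sets named for a microRNA gene, 159 stayed under the floor and 139 were tested. Mir31 alone was called, 3 had a change past 0.5 and 133 lay within 0.25 of 0. The median change was -0.01 at a median signal of 5.31, and 61 of the 139 (43.9%) had the identical value in at least 2 of the 6 arrays, against 36.4% of all probe sets tested. An unadjusted p under 0.05 was reached by 5 that were higher in the knockout and 1 that was lower, Mir218-2, at -0.28, where the shares over all probe sets were 1.35% and 1.16%. Mir155, the third past 0.5, read 5.33, 4.90 and 4.80 in wild-type and 5.51, 6.87 and 5.27 in the knockout. Only knockout replicate 2 stood apart there, and the change of 0.87 had a limma adjusted p of 1.

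Families abundant in many tissues showed no call. For let-7, 6 of 9 probe sets were tested, with changes of -0.12 to 0.00. For miR-30 there were 3 of 6, at -0.08 to 0.28. For the miR-15 and miR-16 group there were 3 of 6, at -0.05 to -0.01, and for the miR-17 family 2 of 6, at -0.08 to 0.17. The mean signals of these 14 probe sets lay between 4.0 and 6.07.

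No gene beside these loci was called. Of the 5 measured genes on each side of Dgcr8, all 10 were tested, with changes of -0.13 (4933432I09Rik) to 0.13 (Tango2). Among them, Ranbp1, which helps to regulate the GTPase Ran, was at 0.00, and Mir185 was at -0.06. Of Mir31's neighbours 7 were tested, at -0.14 for the cell cycle inhibitor gene Cdkn2a to 0.05 for Mtap, an enzyme of methionine salvage. Of Mir138-1's neighbours 8 were tested, at -0.18 (Topaz1) to 0.22 (Snrk). No neighbour of these 3 had an unadjusted p under 0.05. Around Mt1 10 were tested, at -0.10 (Ogfod1) to 0.47 (9330175E14Rik, limma unadjusted p = 0.0247, adjusted p = 1).

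The other metallothionein genes lie in the same cluster as Mt1 and had changes of at most 0.04. Mt2, which often rises together with Mt1 under metal load, read 4.66, 4.63 and 4.79 in wild-type and 4.86, 4.68 and 4.66 in Dgcr8 knockout arrays. The change of Mt2 was 0.04, and those of Mt3 and Mt4 were 0.00 and 0.01. These Mt2 values lay near the floor of 4 and under the array medians of 5.48 to 5.58. So low a signal does not show whether Mt2 responded. The promoters of Mt1 and Mt2 are printed because Mt1 was called and its neighbour was not. Both are RefSeq windows of GRCm38.p6 on the plus strand, from 250 bases before to 50 after the start, at chr8:94178839-94179138 for Mt1 and chr8:94172368-94172667 for Mt2. Capitals mark matches to TGCGCNC or TGCACNC on either strand, the core of the metal response element bound by the factor MTF-1.
Mt1 promoter: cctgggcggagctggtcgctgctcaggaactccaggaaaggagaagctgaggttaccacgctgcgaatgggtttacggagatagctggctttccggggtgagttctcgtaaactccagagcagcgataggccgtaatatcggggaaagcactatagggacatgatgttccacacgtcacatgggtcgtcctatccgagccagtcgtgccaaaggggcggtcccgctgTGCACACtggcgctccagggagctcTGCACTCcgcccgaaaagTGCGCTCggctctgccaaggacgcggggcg
Mt2 promoter: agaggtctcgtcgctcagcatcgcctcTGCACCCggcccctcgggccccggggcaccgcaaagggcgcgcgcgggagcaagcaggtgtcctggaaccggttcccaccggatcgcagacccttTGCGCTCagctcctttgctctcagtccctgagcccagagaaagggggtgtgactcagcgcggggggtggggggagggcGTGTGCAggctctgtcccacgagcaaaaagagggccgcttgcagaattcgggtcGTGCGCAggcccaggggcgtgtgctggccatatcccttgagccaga
The Mt1 window held 3 matches, all on the gene's strand, and the Mt2 window 4, 2 on each strand. Both counts include matches in the 50 bases after the start. Mt3 and Mt4 held 1 each. Of 32851 promoter windows of the same length, 25.7% held at least 1 match, 1.97% at least 3 and 0.517% at least 4. A match is a description of the letters and not a bound site.

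Other genes of metal handling showed changes within 0.33. Of 35 tested, Mt1 was called higher and none lower, and the median change was 0.02 against -0.003 over all probe sets. Mtf1, which encodes the zinc-sensing factor MTF-1, was at 0.06, and Slc30a1, a zinc exporter that is a known target of that factor, at 0.13. Slc30a7, a zinc transporter of the secretory pathway, read 5.40, 5.32 and 5.59 in wild-type and 5.95, 5.75 and 5.59 in knockout arrays. The groups met at 5.59, and the change of 0.33 had a limma unadjusted p of 0.0328 and an adjusted p of 1. Hmox1, the heme oxygenase induced by heme and oxidants, had the lowest value of the list, -0.18.

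Between the 3 called probe sets and all others lay a wide gap. The smallest called change was 1.68 larger in size than the largest that missed the test. Past 2-fold without a call were H2bc18, Timm10 and Acbd7, all lower in the knockout. H2bc18, a histone H2B gene, read 5.67, 5.82 and 9.84 in wild-type and 5.71, 5.04 and 5.90 in knockout arrays. Its change of -1.56 came from wild-type replicate 3, and the other 5 arrays overlapped. Timm10, a chaperone of mitochondrial protein import, read 6.44, 7.05 and 6.46 in wild-type and 5.11, 5.10 and 6.28 in the knockout. These groups did not overlap, and the change was -1.15 ± 0.35 (SE, limma adjusted p = 1). Acbd7 read 5.82, 7.03 and 4.98 in wild-type and 4.83, 4.96 and 5.00 in the knockout, a change of -1.01 with overlap.

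The largest rises that missed the test were under 2-fold (a rise or fall here names only the sign of a difference). One probe set of Nup210l, a relative of a nuclear pore glycoprotein gene, read 4.02, 4.25 and 4.19 in wild-type and 5.07, 4.46 and 5.91 in the knockout, a change of 0.99. A second was at 0.85 with a limma adjusted p of 0.835. The 6 other probe sets of the gene lay between -0.18 and 0.09, so its probe sets disagree. Adamts9, a secreted metalloprotease gene, read 7.48, 6.59 and 7.16 against 8.83, 7.86 and 7.29, a change of 0.92 with overlap. Olfr132, an olfactory receptor gene, read 3.85, 3.68 and 3.596 against 4.10, 4.88 and 4.70, a difference of 0.85, but it passed the floor through the knockout arrays alone, so it had to be higher there. Slc25a36, a mitochondrial nucleotide carrier gene, was at 0.82 without overlap.

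Several of the leading changes rested on 1 array. Pex14, a peroxisomal import gene, read 11.26 in knockout replicate 2 and 8.37 and 8.67 in the others, against 8.41 to 8.98 in wild-type. Slc22a16, a carnitine transporter gene, read 6.80 in knockout replicate 3 and 4.41 and 4.51 in the others, against 4.24 to 4.56. One probe set of Lin52, of the DREAM complex that represses cell cycle genes, read 8.20 in wild-type replicate 3. Its other 5 arrays lay between 6.28 and 6.54. Another probe set of Lin52 also had a change past 0.5 in size. Of the 11 leading falls that missed the test, all had a limma adjusted p of 1, and 5 showed no overlap. The 10 leading rises had adjusted p-values between 0.0536 and 1, and 5 showed no overlap. These were picked for large differences, which favours non-overlap, and over all probe sets the share without overlap was 6.46%.

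**Figure D3:**
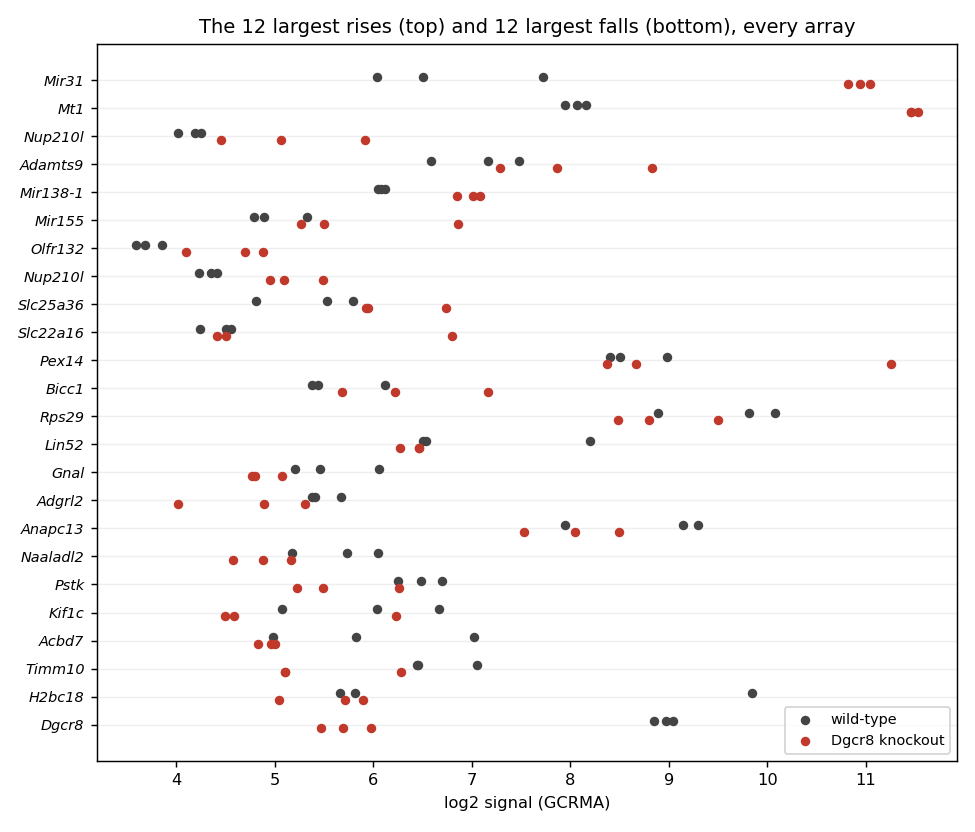
Each row plots the log2 signal of 1 probe set in the 3 wild-type (dark) and 3 Dgcr8 knockout (red) arrays, for the 12 largest rises and 12 largest falls outside predicted genes. The groups are far apart for Mir31, Mt1 and Dgcr8, and for H2bc18, Lin52, Slc22a16 and Pex14 a single array lies away from the rest.

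Of the 79 probe sets past 0.5 that missed the test, 38 were lower and 41 higher in the knockout. Among the 38 falls, wild-type replicate 3 was the wild-type array nearest the knockout in 20, and knockout replicate 3 was the one nearest wild-type in 30. Among the 41 rises these counts were 8 and 5. Wild-type replicate 3 was the array farthest from its own group in 21 of the 79 (26.6%), against 15.8% of all probe sets. For knockout replicate 3 it was 19 (24.1%), near its 24.99% of all probe sets. The part of these 2 arrays in single changes was not tested beyond leaving each out. The number of probe sets past 2-fold was 6 with all arrays. It was 10, 5 and 13 without wild-type replicate 1, 2 and 3. Without knockout replicate 1, 2 and 3 it was 9, 8 and 13.

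Some probe sets had tight replicates and small changes, and are named here after their values were seen. Tmem132b, a transmembrane protein gene, read 7.11, 7.05 and 7.07 in wild-type and 7.61, 7.56 and 7.68 in the knockout, a change of 0.54 (limma adjusted p = 0.166). Btg1b read 5.12, 5.17 and 5.24 against 5.76, 5.77 and 5.95, a change of 0.65 (limma adjusted p = 0.166). Odf1, a sperm tail gene, was at -0.54 (limma adjusted p = 0.553), and Rap2c, a small GTPase gene, at -0.50 (limma adjusted p = 0.835). None of the 4 had overlapping groups, and none was called in the fit used here. Tmem132b passed without the trend and robust settings (limma adjusted p = 0.0373).

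The size of the changes depended on signal level. For the 3581 probe sets with a mean signal under 5, the median size was 0.06 and the 99th percentile 0.41. Both were largest in the middle of the range, with a median of 0.08 from 6 to 8 and a 99th percentile of 0.47 for the 2797 probe sets from 6 to 7. From 9 to 10 the 99th percentile was 0.35, from 10 to 11 it was 0.23, from 11 to 12 it was 0.14 and at 12 or more, with 51 probe sets, it was 0.08. The median half-width of the 95% interval moved alike, from 0.28 at 7 to 8 to 0.15, 0.11 and 0.08 in the 3 highest bins.

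No probe set with a mean signal of 10 or more had a change of 0.5 in size. Among the 1403 from 10 to 11 the largest rise was 0.40, of Spred2, an inhibitor of Ras signalling to MAP kinase, and the largest fall was -0.37, of Thg1l, an enzyme that adds guanosine to histidine tRNA. Among the 604 from 11 to 12 they were 0.27, of Cdo1, an enzyme of cysteine breakdown, and -0.20, of Cops9, of the COP9 signalosome. At 12 or more they were 0.06, of D10Wsu102e, and -0.09, of Plat, tissue plasminogen activator, which is made from stored messenger RNA in maturing oocytes. Below 10, the largest size among probe sets that missed the test was 0.99 under 5, 1.01 from 5 to 6, 1.56 from 6 to 7, 0.92 from 7 to 8, 0.77 from 8 to 9 and 0.80 from 9 to 10. The 3 called probe sets had mean signals from 7.33 for Dgcr8 to 9.77 for Mt1.

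**Figure D4:**
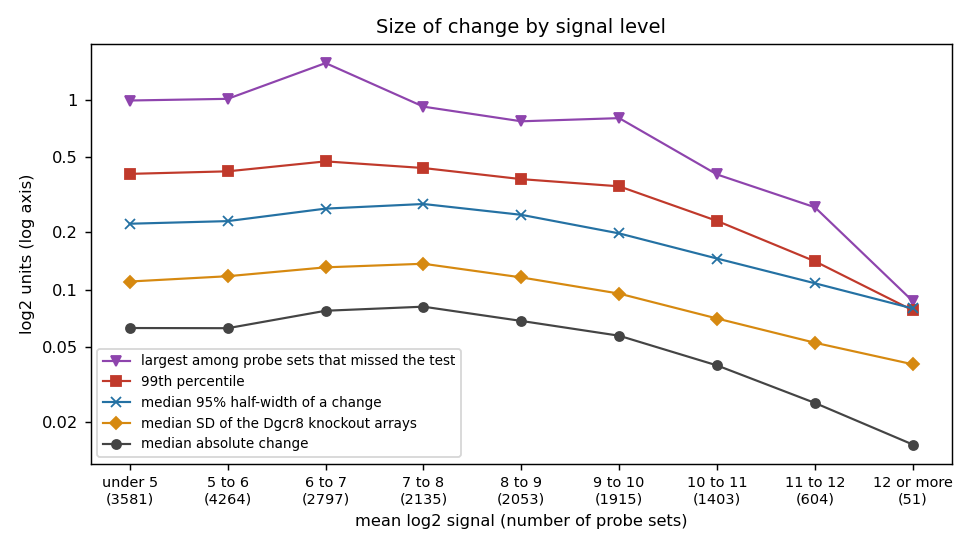
For 9 bins of mean log2 signal, the log-scaled vertical axis plots the median absolute log2 change, its 99th percentile, its largest value among probe sets that missed the test, the median SD of the 3 Dgcr8 knockout arrays and the median half-width of the 95% interval. The median change lies below the replicate SD in every bin, and all 5 curves fall from a signal of 8 to 12 or more, except the largest value, which goes from 0.77 to 0.80 before it falls.

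Genes of the small RNA pathways apart from Dgcr8 differed little. Of 31 tested, 30 lay between -0.11 and 0.34. Drosha, the nuclease partner of Dgcr8, read 9.67, 9.80 and 9.81 in wild-type and 9.88, 9.72 and 9.88 in the knockout, a change of 0.06. Dicer1 was at 0.01 with its arrays between 11.63 and 11.75, and Xpo5, the exporter of hairpins from the nucleus, at -0.02. Ago2, the Argonaute with slicing activity, was at -0.11. The highest value, 0.34 for the Dicer partner Prkra, came from knockout replicate 2, which read 5.24 against 4.10 to 4.37 in the other 5 arrays. In the 16 piRNA pathway genes tested, which serve small RNAs made without Dicer, changes lay between -0.13 (Henmt1) and 0.14 (Piwil4).

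Reported targets of microRNAs were centred near 0. The 6 target lists hold 87 distinct genes that were tested. Their median change was 0.01, 48 of the 87 were above 0, none was called in either direction, and 1, Sox4, had an unadjusted p under 0.05. Over all probe sets the median was -0.003, with 48.6% above 0. The 26 let-7 targets had a median of 0.03, from -0.13 for Cdc34, a ubiquitin-conjugating enzyme, to 0.19 for the transcriptional repressor Prdm1. Hmga2 and Lin28a, which are classic let-7 targets in other cells, were at -0.01 and -0.02. For 25 of these 26 the 95% interval lay within 0.5 of 0, and the widest bound was 0.52, for Insr.

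Targets of the other microRNAs gave medians between -0.03 and 0.01. The 13 miR-30 targets had a median of -0.03, from -0.19 for Ccne2, cyclin E2, to 0.12 for Lifr. The 14 miR-15 and miR-16 targets had a median of 0.01, from -0.21 for Bcl2, an inhibitor of apoptosis, to 0.16 for Ccnd1, cyclin D1. The 13 miR-17 family targets also had a median of 0.01. Their highest value, 0.36 for the pocket protein gene Rbl2, went with a wild-type replicate 3 of 5.90, where the other 5 arrays lay between 6.73 and 7.33.

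The 14 reported targets of miR-31, whose gene had the largest rise, had a median of -0.01. They ran from -0.17 for Mmp16, a membrane metalloprotease, to 0.19 for Stk40, a pseudokinase. Stk40 read 8.88, 9.18 and 9.11 in wild-type and 9.29, 9.25 and 9.20 in the knockout. Rhoa, a GTPase of the actin cytoskeleton, was at -0.08. The widest 95% bound of the list was 0.54, for Mmp16. The 11 miR-138 targets had a median of -0.005, from -0.23 for Sox4 (limma unadjusted p = 0.0300, adjusted p = 1) to 0.18 for Fosl1. Sox4 read 4.98, 5.10 and 4.86 in wild-type and 4.84, 4.71 and 4.71 in the knockout.

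The 5 genes reported as targets of oocyte endo-siRNAs had changes in the Dgcr8 knockout from -0.06 for the chromosome-associated kinesin Kif4 to 0.15 for the histone deacetylase Hdac1. Their median was 0.02, and in the Dicer knockout, against the same wild-type arrays, it was 1.57 with all 5 called. Over all probe sets tested, 11.2% were called in that comparison.

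Genes of the oocyte's own identity showed small differences. In the 17 egg coat, growth factor and fertilization genes the median size was 0.03, and values lay between -0.23 and 0.06. The lowest was Kitl, the Kit ligand that granulosa cells make, which read 5.65, 5.75 and 5.80 in wild-type and 5.61, 5.37 and 5.52 in the knockout (limma unadjusted p = 0.0227, adjusted p = 1). Zp3, Zp2 and Zp1 of the egg coat were at -0.09, -0.06 and -0.02, Gdf9 at -0.03 and Bmp15 at 0.00. In the 26 maternal effect genes, whose products the early embryo needs, the median size was also 0.03. Nlrp5 and Ooep of the subcortical maternal complex were at 0.00 and -0.02, and Zar1 was at 0.04. Khdc3, of the same complex, read 8.76, 8.51 and 7.85 in wild-type and 7.77, 7.95 and 8.52 in the knockout, a change of -0.29 with overlap. Of 12 oocyte transcription factor genes, Nobox and Figla were at 0.00 and -0.01, and Tbpl2, the oocyte's TBP paralogue, was at 0.26 (limma unadjusted p = 0.0345, adjusted p = 1).

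Meiotic control and the spindle showed as little. In 25 genes of meiotic arrest and resumption, changes lay between -0.07 for Mos, the kinase that holds the egg at metaphase II, and 0.12 for Ppp2r1a, a scaffold of phosphatase 2A. Cdk1 was at 0.08 and Ccnb2, cyclin B2, at -0.03. In 45 spindle and kinetochore genes they lay between -0.28 for Spc24, of the Ndc80 complex, and 0.15 for Tubg1, gamma tubulin. Spc24 read 7.66, 6.91 and 7.06 in wild-type and 7.48, 6.32 and 7.01 in the knockout, so the groups overlapped. In neither list did any gene reach an unadjusted p under 0.05.

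Genes that store, deadenylate or destroy maternal messengers had a median change of 0.01 over 44 tested. Btg4, the adaptor that brings the deadenylase to maternal messengers, was at 0.01, and Cnot7 and Cnot6l, catalytic subunits of that deadenylase, at 0.00 and 0.04. The range ran from -0.27 for Btg2 to 0.20 for the poly(A)-binding protein gene Pabpc1. Among 29 genes of DNA methylation and chromatin silencing the range was -0.30 for Tet1, a 5-methylcytosine oxidase, to 0.15 for Hdac1. Tet1 read 7.32, 7.04 and 7.56 in wild-type and 7.12, 6.94 and 6.95 in the knockout. Neither list had an unadjusted p under 0.05.

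Stress and defence genes also stayed within 0.38 of 0. Sesn2, a stress-induced regulator of growth signalling that stands in both the p53 and the amino acid stress lists, read 6.68, 6.52 and 6.09 in wild-type and 6.63, 7.02 and 6.74 in the knockout. Its change of 0.36 had a limma unadjusted p of 0.0472 and an adjusted p of 1. The other ends were H2ax at -0.22 among 26 p53 and DNA damage genes and Vldlr at -0.37 among 24 amino acid stress genes. Of 22 genes of the response to double-stranded RNA and interferon, Oasl1 was at -0.22 (limma unadjusted p = 0.0373, adjusted p = 1) and Eif2ak2, the kinase PKR, at 0.25. The 30 heat shock and oxidative stress genes ran from -0.34 for Gpx4, the lipid peroxidase, to 0.20 for Prdx4. The 24 energy and lipid genes ran from -0.21 for Pdha1, of pyruvate dehydrogenase, to 0.33 for the lipid droplet gene Plin2. Pdha1 read 9.23, 9.03 and 9.16 in wild-type and 8.92, 8.82 and 9.04 in the knockout (limma unadjusted p = 0.0345, adjusted p = 1).

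Over all 25 lists, 509 genes were tested, each by its probe set of highest mean signal, and Dgcr8 and Mt1 were called. Further probe sets of these genes are not counted here, and 878 of all genes tested have several. Of the 507 genes that were not called, 488 lay within 0.25 of 0 at that probe set, and none lay beyond -0.37 or 0.36. An unadjusted p under 0.05 was reached by 10 of 509 (1.96%), against 2.5% of all probe sets. List medians lay between -0.05, for the response to double-stranded RNA and interferon, and 0.03, for energy and lipid metabolism.

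**Figure D5:**
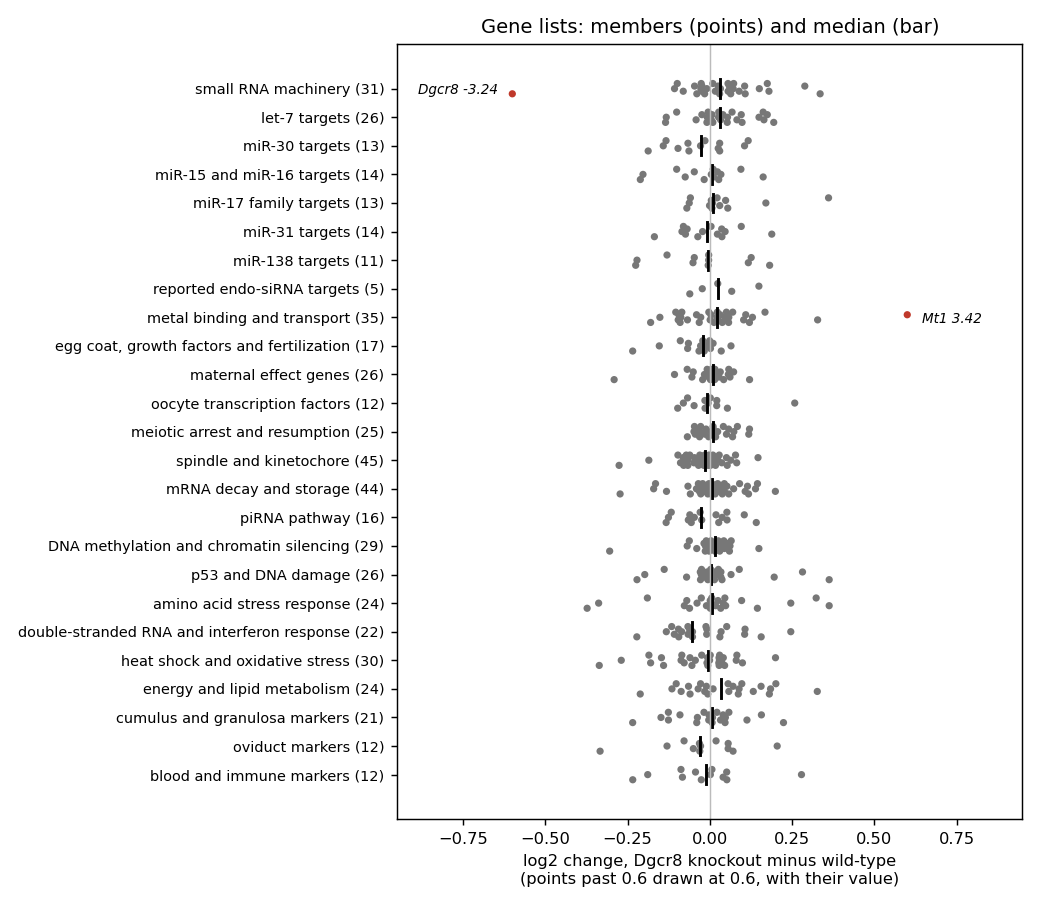
Each point is the log2 change of 1 tested gene, Dgcr8 knockout minus wild-type, at its probe set of highest mean signal. The 25 gene lists are given with the number of genes tested in parentheses, and the bar marks the list's median. Dgcr8 and Mt1 (red) lie past 0.6 and are drawn at 0.6 with their value, and the other points lie between -0.37 and 0.36.

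Gene classes chosen by symbol held 1 call, Mir31 among the microRNA genes. The 330 Zfp zinc finger probe sets had a median of 0.00 and a range of -0.57 (Zfp868) to 0.50 (Zfp780b). The 354 solute carriers had a median of 0.00, and the 338 olfactory receptors one of -0.01, with 13 at an unadjusted p under 0.05 (over all probe sets, 2.5%) and 56.2% with identical values in at least 2 arrays. Of 27 histone probe sets, H2bc18 alone was past 0.5. The 15 Nlrp probe sets, a family rich in oocyte genes, ran from -0.15 (Nlrp1c-ps) to 0.25 (Nlrp4c).

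Cytosolic ribosomal protein genes had the lowest class median, -0.11 over 218 probe sets. Only 29 were above 0, where 48.6% of all probe sets were, 2 had an unadjusted p under 0.05, against 2.5% of all, and none was called. Many of these probe sets repeat a gene, such as Rpl27a, Rpl36 and Rpl38, so they are not counts of separate genes. Respiratory chain and ATP synthase genes had a median of -0.09 over 124, with 33 above 0 and 3 at an unadjusted p under 0.05, to be read against the same shares. Arrays of 1 genotype differed by more than the genotypes did. Relative to the wild-type mean, the ribosomal median was 0.18, 0.02 and -0.18 in the wild-type arrays and -0.23, -0.14 and 0.00 in the knockout arrays. The respiratory median was 0.10, 0.02 and -0.09 and then -0.14, -0.10 and 0.00. Wild-type replicate 3 and knockout replicate 3 therefore lay in the range of the other genotype.

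Rps29 had the largest fall of the ribosomal genes. One probe set read 10.08, 9.81 and 8.89 in wild-type and 8.49, 8.80 and 9.50 in the knockout, a change of -0.66 with overlap (limma adjusted p = 1). Its 4 probe sets lay between -0.66 and -0.61, and copies of this gene may share sequence, so they are not independent. Cox6a1, of cytochrome c oxidase, also had its highest value in wild-type replicate 1 and its lowest in knockout replicate 1, with 10.08, 9.74 and 9.02 against 8.81, 9.04 and 9.37, and a change of -0.55. Proteasome subunits had a median of -0.04 over 44 probe sets, mitochondrial ribosomal proteins one of -0.05 over 85, and ubiquitin-specific proteases the highest class median, 0.05 over 56.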

How the data were processed

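RNA was measured with 9 arrays, 3 for each of the 3 genotypes. The deposited values are log2 signals per probe set, made with GCRMA per the submitters' processing notes (version not given in the sources used here). Array medians lay between 5.48 and 5.58, and values between 1.05 and 13.3. GCRMA corrects background by probe sequence, normalizes between arrays and summarises probes, so many low values are identical between arrays: 6835 of the tested probe sets (36.4%) had the same value in at least 2 of the 6 arrays.

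Genes were named from the platform annotation, and 21698 of 21789 probe sets with 1 gene matched the RefSeq table (GRCm38.p6). Another 1621 probe sets name several genes and 12147 are unnamed here. A single limma fit of all 9 arrays without covariates (limma 3.58.1, statmod 1.5.0, R 4.3.3; lmFit and eBayes, trend and robust) gave two-sided p-values. They were adjusted by Benjamini-Hochberg over all 18803 probe sets, and a probe set was called at an adjusted p under 0.05. The fit was also run on simulated data with independent noise. These lacked the ties and the shared array shifts of the real arrays, so the run does not measure performance under them. An exact permutation test of 3 against 3 arrays cannot go under 0.1 and was not used. Precision is limited by the number of arrays, with a median 95% half-width of 0.23.

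Named genes are the called probe sets, the 12 largest rises and 12 largest falls outside predicted names, the extremes of each signal bin and each list, the member of each list with the highest signal, the neighbours of called genes, and Dgcr8, Drosha, Dicer1, Mt1, Mt2, Mir31 and Mir138-1. Other list members are named as examples of their role, and class extremes as such, after their values were seen. The members, lists and tests were chosen with earlier results of these data known, so no list is independent evidence. Nothing in the labels shows whether the replicates came from separate females, and p-values measure the spread between these samples. Same-numbered wild-type and Dgcr8 knockout arrays did not deviate together (r = -0.02, -0.03 and -0.22). Deviations within a group balance out, which ties these correlations together, so they cannot decide whether the numbers pair the samples. The Dicer knockout arrays were not part of this check. Alternatives changed the floor, scaling, probe sets, eBayes settings, array weights, which arrays were fitted, and a replicate block.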

Additional observations from a re-analysis of the deposited data

Results flagged for a closer look

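Dgcr8 and Mir31 differed between the 2 knockouts in a direct contrast, in which the wild-type arrays enter only the estimate of the spread. The contrast reuses the Dgcr8 knockout arrays by which both were called, so it is not independent support. For Dgcr8, the gene knocked out in 1 of the 2 groups, the difference goes with the genotype and is no response. The Dicer knockout minus Dgcr8 knockout difference was 2.74 for Dgcr8 (limma adjusted p = 5.23e-06) and -5.17 for Mir31 (limma adjusted p = 3.33e-05). All 3 arrays of 1 knockout lay on the same side of all 3 of the other for both. Mir31 kept an adjusted p between 1.28e-05 and 0.000506 in this comparison when single arrays were left out.

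A probe set without a gene name here, 10341916, carried a signal outside the comparison. With all probe sets of the table in the fit, it was higher by 0.88 in the Dgcr8 knockout (limma adjusted p = 0.0443). Its wild-type arrays read 5.06, 5.05 and 4.98, its knockout arrays 5.93, 5.97 and 5.83, and its Dicer knockout arrays 5.11, 4.87 and 4.79. What it measures is not known here.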

How the results depend on the processing

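Dgcr8 and Mt1 were called under all 20 settings that kept their probe sets, with changes of -3.37 to -3.12 and 3.36 to 3.47. Mir31 was called in 14 of 20. The count of calls was 3, and 5 without the trend and robust settings, which added Mir138-1 and Tmem132b. The count called higher was 2, and 1 with the 6 arrays alone, 4 without trend and robust settings, and between 1 and 3 when single arrays were left out. With the replicate number as a block, 2 probe sets were called and 1 was higher, Mir31 being lost (adjusted p = 0.0677); the block changed no other call. At an adjusted p under 0.1 the count was 4. Of 159 named probe sets, the call of Mir31 was lost under some settings and 1 uncalled probe set, Mir138-1, gained one. No called change reversed under any setting tried.

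Medians of some lists moved between settings but stayed small. Leaving out single arrays gave -0.044 to 0.0032 for miR-30 targets, -0.030 to 0.018 for miR-15 and miR-16 targets, -0.079 to 0.013 for miR-138 targets, -0.025 to 0.013 for oocyte transcription factors, and -0.016 to 0.021 for meiotic arrest and resumption. It gave -0.035 to 0.034 for the piRNA pathway, -0.057 to -0.0084 for the response to double-stranded RNA and interferon, and -0.026 to 0.016 for cumulus and granulosa markers. Centring each array on its median gave 0.022 for meiotic arrest and resumption. The cause of these shifts was not tested. The probe sets past 2-fold numbered 24 with every probe set of the table. Those with an unadjusted p under 0.05 numbered 282 with a floor of 6, where fewer were tested, and 991 with array weights. Signals under 5 limit what can be seen, since many are tied between arrays.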

Other observations

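Probe sets outside the comparison gave 1 call. In a fit of all probe sets, 1244 that name several genes held no limma call, with 30 (2.41%) at an unadjusted p under 0.05, and changes between -0.90 and 0.68. Of 6886 unnamed here, 1 was called, 262 (3.80%) had an unadjusted p under 0.05 and 18 differed by at least 2-fold, between -1.59 and 1.42. Their 99th percentile of the size was 0.69, against 0.41 for probe sets with 1 gene, of which 2.12% had an unadjusted p under 0.05 in that fit.

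Below the floor, Gm14636, a predicted gene, passed when no floor was set. It read 1.83, 1.83 and 1.83 in wild-type and 2.57, 2.70 and 2.56 in the Dgcr8 knockout, a change of 0.78 (limma adjusted p = 0.00871), and 1.81, 1.69 and 1.599 in the Dicer knockout.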
